A study of Mus musculus with 20 samples.

Results

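The cells described here are the Pou4f1-positive wells of the habenula plates of embryonic days 11 and 13 (E11 and E13). A well was kept when it held at least 1000 counts outside spike-in and mitochondrial rows, at least 500 genes and at most 20% mitochondrial counts, and it was called positive when it held a Pou4f1 value of at least 1. By this rule 768 of the 944 kept wells of the 4 plates were positive, out of 3729 kept wells in all 15 plates of the developmental series. The members were thus chosen by their Pou4f1 values. Positive wells were summed per plate, and E13 was compared with E11 with 2 plates a side. Pou4f1 chose the wells, so its level is given as a description and was not tested.

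Every plate came from the Brn3a-tauLacZ line, named for Brn3a, the older name of Pou4f1, and from tissue labelled habenula. The E11 and E13 plates thus share the reporter line. The labels do not state the genotype at the reporter locus, the sex or number of the embryos, or any sort gate. Single cells were processed by Cel-seq2, a plate method that counts the 3' ends of transcripts with unique molecular identifiers (UMIs). The labels do not say that plates of 1 stage came from separate litters, so p-values measure the spread between plates, which may be technical.

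The habenula is a paired nucleus at the dorsal edge of the diencephalon that sends its axons to the midbrain and hindbrain through the fasciculus retroflexus. Pou4f1 is a POU-homeodomain transcription factor that habenular neurons switch on as they leave the cell cycle and keep for life. Neurons born in this period first express general differentiation factors of the Onecut, Tfap2 and Ebf families, extend axons under the control of Robo, neuropilin, netrin and semaphorin receptors, and acquire the peptides and receptors of the medial or lateral habenula later.

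E11 plate 1 gave 285 positive wells of 309 kept (92.2%, exact 95% interval 88.7% to 94.96%) and E11 plate 2 gave 304 of 345 (88.1%, 84.2% to 91.3%). E13 plate 1 gave 109 of 153 (71.2%, 63.4% to 78.3%) and E13 plate 2 gave 70 of 137 (51.1%, 42.4% to 59.7%). With each well thinned to 2000 UMIs, which left out 4, 6, 18 and 8 shallower wells, the shares were 71.1%, 64.6%, 48.9% and 24.8%. Both E13 plates lay below both E11 plates on either scale, and intervals here and below cover counting error only. The positive wells summed to 4947935 and 4603922 counts at E11 and to 1464039 and 1090666 at E13, and 3 counts, used as the floor for a gene not detected, corresponded to 0.606, 0.652, 2.05 and 2.75 counts per 1000000 (CPM). Levels below are CPM of these sums. Pou4f1 itself stood at 877 and 838 CPM at E11 and at 548 and 353 CPM at E13, with a median of 14, 10.5, 5 and 3 UMIs per positive well. Wells just inside the threshold, with 1 Pou4f1 UMI, numbered 22, 26, 21 and 23, and wells just outside it, with none, numbered 24, 41, 44 and 67. Neuron-list levels were 11044 and 18783 CPM (E11) and 8711 and 4534 CPM (E13) in the 1-UMI wells, against 8714 and 13121 CPM and 9385 and 3383 CPM in the wells with none.

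The label was checked against neuron markers. The list of 14 pan-neuronal genes summed to 23181 and 23048 CPM in the E11 positive wells and to 15103 and 9888 CPM at E13, and the median well detected 14, 14, 13 and 11 of the 14. E13 plate 2 stood apart from the other plates. Its positive wells held 2315 CPM of an 11-gene vascular list, against 46 and 18 CPM at E11 and 180 CPM on E13 plate 1. They also held 2352 CPM of Ttr, the choroid plexus transthyretin, against at most 0.683 CPM on the 3 others. Ttr was detected in 98.6% of positive and 94.0% of negative wells of E13 plate 2, with median depths of 13903 and 10941 counts. At least 1 UMI of Mki67 or Top2a, genes of dividing cells, was found in 57.1% of its positive wells, against 18.3% on E13 plate 1 and 12.3% and 4.61% at E11. Across genes, which are not independent replicates, log2 CPM correlated at 0.982 between the E11 plates and 0.905 between the E13 plates. Of the vascular list, 1 of 11 genes was at 0 on each E11 plate (Pecam1 and Pdgfrb) and none at E13, where the endothelial gene Cldn5 held 2 and 7 counts. The choroid plexus list of 7 genes summed to 140 and 116 CPM at E11 and to 137 and 2616 CPM at E13. Lists for fibroblasts, microglia, pineal, thalamus, midbrain, sensory ganglion, neural crest and forebrain GABAergic cells held no gene called with edgeR in all positive wells. Of them the fibroblast list reached 302 CPM on E13 plate 2, against 6.52 to 75.8 CPM on the 3 others, and the sensory ganglion list went from 910.3 and 912 to 327 and 131 CPM, with 4 of its 12 genes at 0 on each E13 plate. The fibroblast list had 3 of 5 tested genes at an unadjusted p under 0.05 and 1 called by DESeq2, the sensory ganglion list 4 of 7 and 1, the thalamus list 2 of 5 and 1, the midbrain list 2 of 4 and none, and the GABAergic list 1 of 1 and none. The microglia, pineal and neural crest lists had none by either count. DESeq2 called 789 of the 13464 genes it gave an adjusted p (5.86%), 423 higher (3.14%) and 366 lower (2.72%). Its counts for lists, here and below, stand beside these shares as a description. No erythroid gene passed the filter on low counts. The part of these other transcripts in the results was not tested. As a measured comparison, results are also given for wells with 5 or more Pou4f1 UMIs, a threshold chosen after the data were seen. Those wells numbered 236, 217, 62 and 24, and in them the vascular list stood at 397 CPM on E13 plate 2 in place of 2315 CPM, and the neuron list stood at 13851 CPM there and at 16583 CPM on E13 plate 1. There edgeR called 908 of 12279 genes (7.39%), 452 higher (3.68%) and 456 lower (3.71%). These included, lower, 4 of 7 tested sensory ganglion genes (Prph, Ntrk3, Tlx3 and Sncg), 1 thalamus gene (Rora) and 1 midbrain gene (Meis2).

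**Figure D1:**
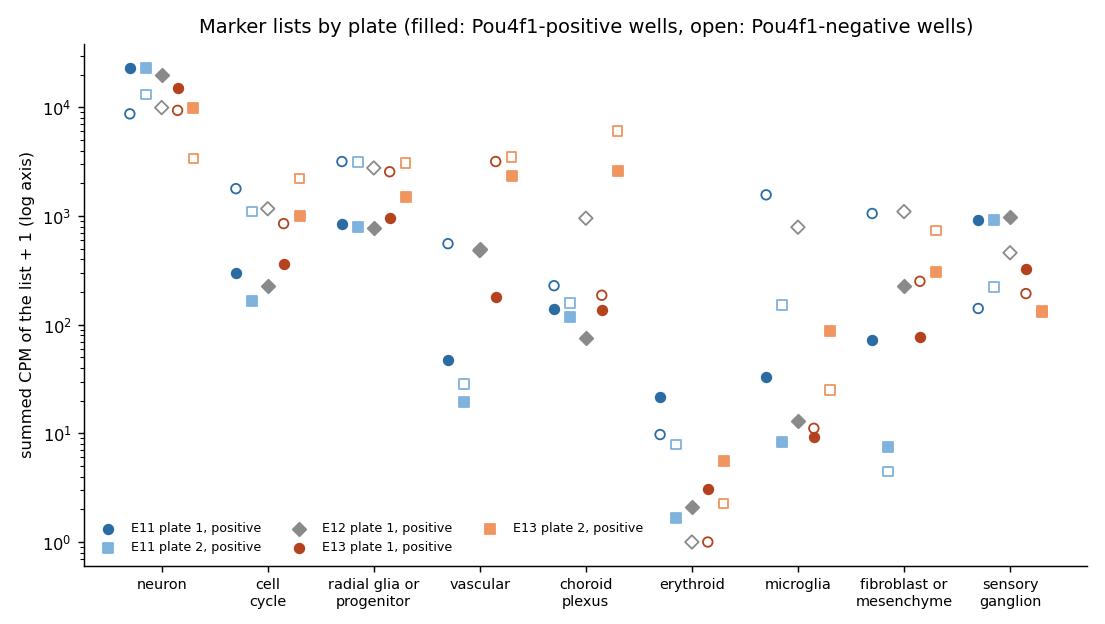
Summed CPM plus 1 of each marker list (log axis) by plate, 1 symbol per plate, filled for Pou4f1-positive and open for Pou4f1-negative wells. On E13 plate 2 the positive wells reach 2315 CPM of the vascular list and 9888 CPM of the neuron list.

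From E11 to E13 in the positive cells, edgeR called 5 genes of the early neuron transcription factor list lower and 3 higher. The axon guidance list had 4 called lower and 4 higher, and 2 of 16 tested habenula transcription factors were called, both higher. The retinoic acid-binding protein gene Crabp1 fell to near the floor, the guidance receptor gene Robo2 fell while Robo3 and Nrp2 rose, and Onecut2, Tfap2b, Ebf2 and the RNA-binding protein gene Lin28a fell. Of 13221 genes tested with edgeR's quasi-likelihood test, 322 passed a Benjamini-Hochberg adjusted p of 0.05 (2.44%), 155 higher at E13 (1.17%) and 167 lower (1.26%). Counts of called list members in all positive wells, here and below, stand beside these shares as a description. The lists were chosen with earlier results of these data known, so a larger share in a list is no test of enrichment. The median log2 fold change of all genes tested was 0.01. All 322 had both plates of 1 stage above both of the other, which held for 56.7% of all genes tested, and 3024 genes had an unadjusted p under 0.05. Among wells with 5 or more Pou4f1 UMIs, 314 of the 322 genes were tested again, all 314 had the same sign and 300 were called in the same direction. In the table of unspliced transcripts, where 7.03% of 6487 genes tested were called, 219 of the 322 could be tested, 217 had the same sign and 172 were called. The wells with 5 or more UMIs are part of the positive wells, and the unspliced counts come from the same positive wells. Neither repeat is therefore independent of the 322 calls. The test called 138 genes when E11 plate 1 was left out and 137 when E11 plate 2 was, and made 120 and 126 of the 322 calls again. It called 3716 genes when E13 plate 1 was left out and 1458 when E13 plate 2 was, and made 319 and 318 of the calls again. With 1 plate left in a stage, its spread is assumed to be that of the other stage.

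**Figure D2:**
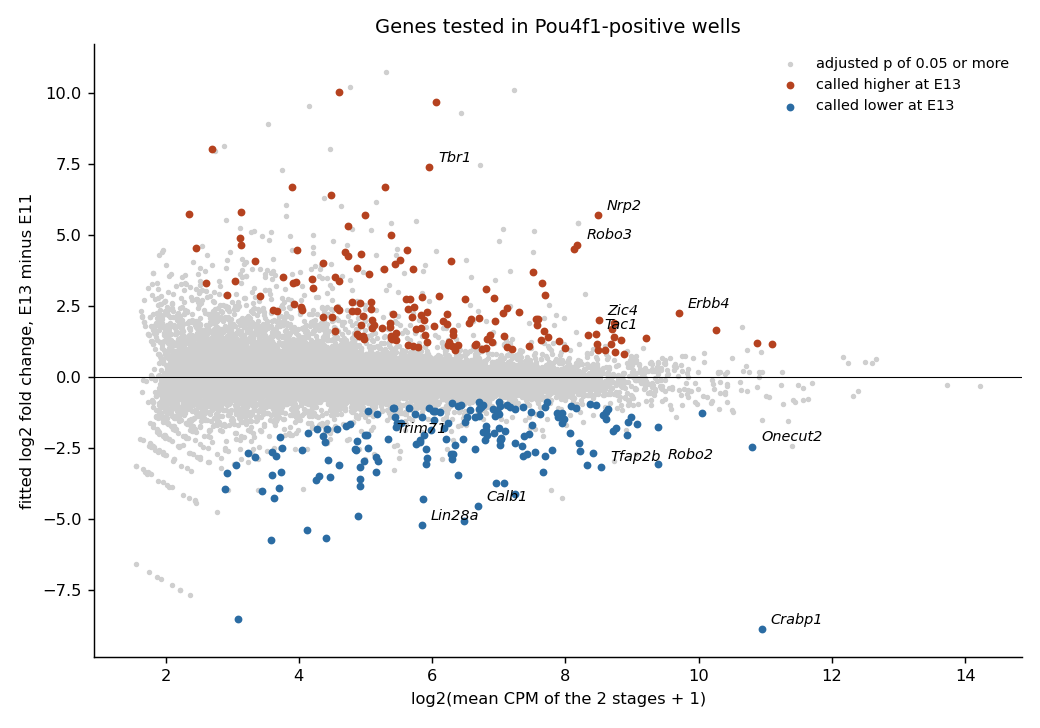
Fitted log2 fold change, E13 minus E11, against the log2 mean CPM plus 1 of each of the 13221 genes tested. Red points are the 155 genes called higher at E13 and blue points the 167 called lower, with Crabp1 the lowest labelled point at -8.86.

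Crabp1 (ENSMUSG00000032291, chromosome 9, 54764748 to 54773110, plus strand) had the largest fall of any named gene. Its product binds retinoic acid in the cytoplasm. It stood at 4651 and 3221 CPM on the E11 plates and at 12.3 and 4.58 CPM on the E13 plates, so that both E13 plates lay far below both E11 plates. The log2 fold change was -8.86 ± 0.44 (SE, edgeR adjusted p 0.0051, n = 2 plates a stage). It was detected in 99.6% and 99.7% of positive wells at E11 and in 12.8% and 2.86% at E13. Negative wells went the same way, from 1457 and 1496 CPM to 10.1 and 5.05 CPM. The E12 plate, which is single and was not in the test, stood at 314 CPM, with Crabp1 in 67.4% of its positive wells. With edgeR no other member of the retinoic acid list of 17 genes was called, and 8 were tested, with a median log2 fold change of 0.22. DESeq2 called 1 of the 8 lower and 1 higher. Crabp2, the Crabp1 paralog, stood at 453 and 505 CPM at E11 and at 299 and 101 CPM at E13 (edgeR adjusted p 0.174). Rara, a nuclear receptor for the ligand, stood at 21.4 and 29.3 CPM and at 17.8 and 21.1 CPM (adjusted p 0.378).

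Robo receptors bind Slit ligands and repel growing axons from the midline, and Robo3 instead favours crossing in commissural neurons of the hindbrain and spinal cord. Robo3 (ENSMUSG00000032128, chromosome 9, 37415669 to 37433246, minus strand) stood at 20.8 and 20.6 CPM at E11 and at 538 and 573 CPM at E13. The plates of a stage were nearly equal and the stages did not overlap. Its log2 fold change was 4.66 ± 0.16 (adjusted p 0.0017). Robo2 (ENSMUSG00000052516, chromosome 16, 73891839 to 74411825, minus strand) went the other way, from 1268 and 1123 CPM to 169 and 132 CPM, a change of -3.06 ± 0.20 (adjusted p 0.0051). Robo1, the third receptor, stood at 3988 and 3583 CPM and at 2833 and 1748 CPM (adjusted p 0.155), and was not called. The counts used include unspliced transcripts, and Robo2 is the longer gene, so UMIs of Robo2 and Robo3 are not strictly comparable. Within single wells, Robo3 had more UMIs than Robo2 in 4 of 285 and 8 of 304 positive wells at E11 (1.40% and 2.63%). At E13 it did in 70 of 109 and 37 of 70 wells (64.2% and 52.9%), and on the E12 plate in 33 of 261 (12.6%). Wells with UMIs of both genes were 22 and 26 at E11 and 35 and 13 at E13. In Pou4f1-negative wells Robo3 was detected in 34.1% and 20.9% of wells at E13, against 78.9% and 60.0% of positive wells. The negative wells were shallower on both plates, with median depths of 3683 and 10941 counts against 12889 and 13903.

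Neuropilins are co-receptors for class 3 semaphorins, and Nrp2 is a receptor for the repellent that bundles the fasciculus retroflexus. Nrp2 (ENSMUSG00000025969, chromosome 1, 62703285 to 62818695, plus strand) rose from 11.1 and 14.6 CPM to 606 and 801 CPM, with no overlap between stages. The change was 5.69 ± 0.24 (adjusted p 0.00332), and Nrp2 was found in 9.47% and 10.9% of E11 and 84.4% and 92.9% of E13 positive wells. Negative wells held it in 12.5% and 7.32% at E11 and in 63.6% and 80.6% at E13, so the rise was not limited to Pou4f1-positive wells. Nrp1 (ENSMUSG00000025810, chromosome 8, 128358604 to 128503363, plus strand) rose from 15.2 and 14.1 CPM to 67.6 and 99.0 CPM (2.42 ± 0.23, adjusted p 0.0116). Of the 36 genes of the axon guidance list, all tested, 4 were called higher (Robo3, Nrp2, Nrp1 and Cntn2) and 4 lower (Robo2, Unc5d, Sema6d and Cxcr4), and the list's median log2 fold change was 0.04. Cntn2, an axonal adhesion molecule, went from 208 and 233 to 509.5 and 737 CPM (adjusted p 0.0341). Unc5d, a netrin receptor of the Unc5 family, went from 172 and 163 to 39.6 and 20.2 CPM (adjusted p 0.0193). Cxcr4, a chemokine receptor of migrating cells, held 114 counts at E11 and 3 at E13, a ratio of 10.2 (95% counting interval 3.39 to 50.0, adjusted p 0.0491). Sema6d, a transmembrane semaphorin, went from 828 and 613 to 236 and 336 CPM (-1.42 ± 0.23, adjusted p 0.046), but its change was 0.0079 in the spliced table alone. Dcc, the main attractive netrin receptor, stood at 3661 and 3111 CPM and at 6520.3 and 5085 CPM (adjusted p 0.121) and was not called, while in wells with 5 or more Pou4f1 UMIs it changed by 0.68 (adjusted p 0.0228). Without E11 plate 1 the adjusted p of Cntn2, Sema6d and Cxcr4 was 0.163, 0.163 and 0.405, and without E11 plate 2 it was 0.116, 0.0541 and 0.476.

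The 300 bases around the RefSeq start sites of Robo3 and Crabp1 (250 before to 50 after, build GRCm38.p6, each 5' to 3' on the gene's strand) are shown because Robo3 rose with the smallest adjusted p of the named genes and Crabp1 had the largest fall. Robo3 is at chr9:37433126-37433425 on the minus strand and Crabp1 at chr9:54764498-54764797 on the plus strand, and both windows reach from the promoter into the first transcribed bases. Capitals mark every match, on either strand, to letters bound by factors of the early neuron program: ATCAAT for Onecut, TAATTAAT for POU4, CCCNNGGG for EBF and CAGNTG for neurogenic basic helix-loop-helix factors.
Robo3: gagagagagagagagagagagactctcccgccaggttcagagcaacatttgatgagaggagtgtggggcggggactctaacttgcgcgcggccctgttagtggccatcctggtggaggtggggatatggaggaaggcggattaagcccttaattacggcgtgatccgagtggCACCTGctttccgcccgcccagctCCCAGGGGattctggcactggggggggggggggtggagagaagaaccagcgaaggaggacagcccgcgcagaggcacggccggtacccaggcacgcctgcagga
Crabp1: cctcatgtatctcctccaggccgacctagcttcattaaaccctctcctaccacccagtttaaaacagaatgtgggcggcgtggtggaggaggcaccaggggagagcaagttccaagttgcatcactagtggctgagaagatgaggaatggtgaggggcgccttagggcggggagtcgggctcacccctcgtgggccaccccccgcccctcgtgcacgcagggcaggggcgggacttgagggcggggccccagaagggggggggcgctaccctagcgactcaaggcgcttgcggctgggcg
The Robo3 window held 1 CAGNTG match, read on the other strand, and 1 CCCNNGGG match, and the Crabp1 window held none of the 4. Over the 12112 windows of genes tested, ATCAAT was in 4.06%, TAATTAAT in 0.479%, CCCNNGGG in 18.2% and CAGNTG in 43.3%. Over the 177 windows of genes called lower the shares were 9.60%, 1.69%, 21.5% and 50.3%, and over the 124 of genes called higher 8.06%, 2.42%, 21.0% and 46.0%. The windows matched 9383 of the genes tested, some with several starts, and a match is a description of letters only.

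Transcription factors of newborn neurons changed in both directions. Of 15 genes of that list, all tested, 5 were called lower (Onecut1, Onecut2, Tfap2b, Ebf2 and Ebf3) and 3 higher (Pou3f1, Zfhx3 and Zfhx4), with a median log2 fold change of -1.15. Onecut2, a cut-homeodomain factor, went from 2984 and 3025 CPM to 661 and 494 CPM (-2.45 ± 0.20, adjusted p 0.00897). Onecut1 went from 206 and 217 to 69.7 and 50.4 CPM (adjusted p 0.0152). Onecut3 stood at 437 and 387 CPM and at 48.5 and 3.67 CPM and missed the threshold (adjusted p 0.0558). Tfap2b, an AP-2 factor, went from 666 and 662 to 64.2 and 94.4 CPM (-3.15 ± 0.21, adjusted p 0.0051).

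Ebf2 and Ebf3 encode helix-loop-helix factors of neuronal differentiation and migration. Ebf2 went from 475 and 494 to 101 and 106 CPM (-2.30 ± 0.15, adjusted p 0.0051) and Ebf3 from 662 and 785 to 234 and 278 CPM (adjusted p 0.0152). Ebf1 stood at 1907 and 2041 CPM and at 1070.3 and 799.5 CPM and was just outside the threshold (adjusted p 0.0501). The 3 that rose are homeodomain factors. Zfhx3 went from 173 and 172 to 886 and 460.3 CPM (adjusted p 0.0491), Zfhx4 from 108 and 84.3 to 331 and 292 CPM (adjusted p 0.0176) and Pou3f1 from 97.4 and 89.5 to 186 and 212 CPM (adjusted p 0.0338). In wells with 5 or more Pou4f1 UMIs each of these 8 genes was called again and 4 of the 15 were called higher and 7 lower, among them Onecut3 (-3.81, adjusted p 0.000471) and Ebf1 (-0.97, adjusted p 0.0101). Without E11 plate 1 the adjusted p was 0.227 for Pou3f1 and 0.113 for Zfhx3, and without E11 plate 2 it was 0.319 for Pou3f1, 0.115 for Zfhx3, 0.0993 for Zfhx4 and 0.0648 for Ebf3.

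Lin28a and Trim71 are developmental timing genes. Lin28a protein blocks the maturation of the let-7 microRNA, Trim71 protein binds and represses other transcripts, and both transcripts are known let-7 targets. Lin28a (ENSMUSG00000050966, chromosome 4, 134003330 to 134018841, minus strand) went from 112 and 109 CPM to 5.46 CPM on E13 plate 1 and 0 counts on E13 plate 2, where 3 counts would be 2.75 CPM. The change was -5.21 ± 0.54 (adjusted p 0.0144). It was detected in 69.1% and 62.2% of E11 positive wells and in 6.42% and 0% of E13 wells. A count of 0 in 70 wells allows a share of up to 4.29% of wells with a UMI by the floor of 3 counts, and the exact 95% interval ends at 5.13%. Negative wells held it in 12.5% and 24.4% at E11. They were shallower there, with median depths of 7288 and 5338 counts against 15278 and 13693. With E11 wells thinned to 2000 UMIs, Lin28a was in 17.0% and 18.5% of positive wells and in 0% and 5.41% of 22 and 37 negative wells. The E12 plate already stood at 8.55 CPM. Trim71 (ENSMUSG00000079259, chromosome 9, 114507133 to 114564369, minus strand) went from 64.7 and 62.6 to 14.3 and 15.6 CPM (-2.17 ± 0.19, adjusted p 0.00993), with 14.9 CPM at E12. Its unspliced transcripts changed by -0.24 (adjusted p 0.738). These were the 2 called genes of the 10 of the early timing list, whose median was -0.49. Lin28b, the Lin28a paralog, stood at 182 and 166 CPM and at 170.1 and 118 CPM (adjusted p 0.391), and its stages overlapped.

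Mature let-7 is not measured by this assay. Its sequence is printed so that the sites in these transcripts can be read against it. All 8 let-7 5p forms matched in RefSeq (GRCm38.p6) share 1 seed, bases 2 to 8, in capitals in the let-7a form. The sites follow, as 22-base windows of the longest GENCODE M21 3' untranslated region of each gene (GRCm38), 5' to 3' on the minus strand, with the complement of the seed in capitals.
mmu-let-7a-5p: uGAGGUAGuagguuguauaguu
Lin28a site 1, chr4:134005186-134005207: agcctgttgaaCTACCTCattt
Lin28a site 2, chr4:134004548-134004569: tcgccacaaacCTACCTCactg
Trim71 site 1, chr9:114512469-114512490: ttgcctaagtcCTACCTCagct
Trim71 site 2, chr9:114512373-114512394: ataatttctatCTACCTCaact
Trim71 site 3, chr9:114509044-114509065: gtatggattttCTACCTCaatt
Trim71 site 4, chr9:114509018-114509039: caaaaagttgtCTACCTCacgt
Lin28a held 2 such matches in 2775 bases and Trim71 4 in 5512. CTACCTC was in 9 of the 10 early timing genes, among them Lin28b with 4, and in 10.8% of the 11544 genes tested with a 3' untranslated region. It was in 20 of 148 genes called lower (13.5%) and 7 of 121 called higher (5.79%). The list holds known let-7 targets, so its share was fixed by its choice.

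Late timing genes, the Nfi and COUP-TF factors, gave no call in 6 tested with edgeR, where 4 had an unadjusted p under 0.05 and DESeq2 called 3 higher. Nfia stood at 32.9 and 4.34 CPM at E11 and at 149 and 383 CPM at E13 (adjusted p 0.0845). Nfib stood at 23.6 and 6.95 CPM and at 124 and 576 CPM (adjusted p 0.0646). Both E13 plates were above both E11 plates for each gene, but the plates of 1 stage differed several-fold. In wells with 5 or more Pou4f1 UMIs edgeR called 3 of 5 tested late timing genes higher and 1 lower, with Nfia at 3.71 (adjusted p 0.0474) and Nfib at 6.18 (adjusted p 0.0102).

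Of the 24 genes with the largest changes, the 12 that rose included several with very few counts at E11. Samd3 had 0 counts on both E11 plates and 110 at E13, at least 137-fold higher against a floor of 3 counts over the E11 group. Kcng4, a modulatory potassium channel subunit, had 2 counts at E11 and 67 at E13, a ratio of 125 (95% counting interval 33.3 to 1056). Abcc9, a subunit of potassium channels of mural cells, had 1 and 298 counts, a ratio of 1114 (198 to 44154), and stood at 31.4 CPM on E13 plate 1 and 231 CPM on plate 2. Abcc9 was found in 48.6% of positive and 62.7% of negative wells of E13 plate 2, where the vascular list was highest. Abcc9 is not on that list, and a link between the 2 was not tested. Gng11, a G protein gamma subunit, stood at 0.808 and 0.434 CPM and at 24.6 and 127 CPM (adjusted p 0.0383). Ezr, a membrane-cytoskeleton linker, stood at 6.06 and 1.52 CPM and at 43.7 and 141 CPM (adjusted p 0.0466).

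Transcription factors and secreted factors were among the other large rises. Tbr1, a T-box factor of glutamatergic neurons, went from 0.404 and 0.869 to 40.3 and 203 CPM (7.39 ± 1.05, adjusted p 0.0334). Fezf1, a zinc-finger repressor of forebrain patterning, went from 2.02 and 0 to 30.1 and 91.7 CPM (adjusted p 0.0469, and 0.0979 with DESeq2). Rspo3, a secreted enhancer of Wnt signalling, went from 35.2 and 8.91 to 431 and 642 CPM (4.51 ± 0.61, adjusted p 0.0289). Rspo3 was found in 63.6% and 77.6% of the negative wells at E13 as well, against 67.9% and 88.6% of positive wells. With wells thinned to 2000 UMIs, which left 31 and 61 negative and 104 and 68 positive wells, the shares were 54.8% and 59.0% in negative and 32.7% and 63.2% in positive wells. Its level was 604 and 809 CPM in the negative wells, above the positive wells of the same plate on both. Kitl, the ligand of the Kit receptor, went from 1.82 and 2.82 to 96.3 and 61.4 CPM (5.01 ± 0.37, adjusted p 0.00661), and the E12 plate was at 58.1 CPM. Spry1, an inhibitor induced by FGF signalling, went from 1.41 and 0.869 to 45.8 and 55.0 CPM (5.32 ± 0.36, adjusted p 0.0051), and its change was 3.24 in wells with 5 or more Pou4f1 UMIs. In the negative wells of the E13 plates Spry1 stood at 192 and 232 CPM, Gng11 at 159 and 251 CPM, Ezr at 91.2 and 505 CPM, Fezf1 at 70.9 and 124 CPM and Abcc9 at 108 and 419 CPM, each above the positive wells of the same plate.

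The 12 largest falls held 10 genes beside Crabp1 and Lin28a. Vwc2l, a secreted BMP-binding protein, went from 176 and 166 to 8.88 and 0.917 CPM (-5.05 ± 0.48, adjusted p 0.0116). Calb1, which encodes the calcium-binding protein calbindin, went from 149 and 239 to 4.78 and 13.8 CPM (-4.54 ± 0.45, adjusted p 0.0126). Calb1 stood at 281 CPM on the E12 plate, above both E11 plates. Greb1l went from 277 and 219.6 to 26.6 and 11.0 CPM (adjusted p 0.0116). Cacna2d3, a calcium channel subunit, went from 117 and 99.9 to 8.20 and 2.75 CPM (adjusted p 0.00897).

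Chst9, a sulfotransferase gene, held 379 counts at E11 and 2 at E13, a ratio of 50.7 (95% counting interval 13.9 to 420.03). Chrna5, an accessory subunit of nicotinic receptors, held 207 and 1, a ratio of 55.4 (9.83 to 2197), and on later plates it stood at 0 to 10.8 CPM, below both E11 plates. Prss12, a secreted protease, went from 54.2 and 56.9 to 2.05 and 1.83 CPM (-4.87 ± 0.30, adjusted p 0.0051). Kcnab1, Pappa2 and Fzd8 went from 25.5 and 19.8, 49.5 and 58.4, and 30.9 and 35.2 CPM to 2.05 and 0.917, 0.683 and 8.25, and 0.683 and 5.50 CPM. Fzd8 encodes a Wnt receptor and Pappa2 a protease of IGF-binding proteins. Without E11 plate 1 the adjusted p was 0.0678 for Chrna5, 0.142 for Kcnab1, 0.0568 for Pappa2 and 0.0861 for Fzd8. Without E11 plate 2 it was 0.0618, 0.0601, 0.0713 and 0.112.

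**Figure D3:**
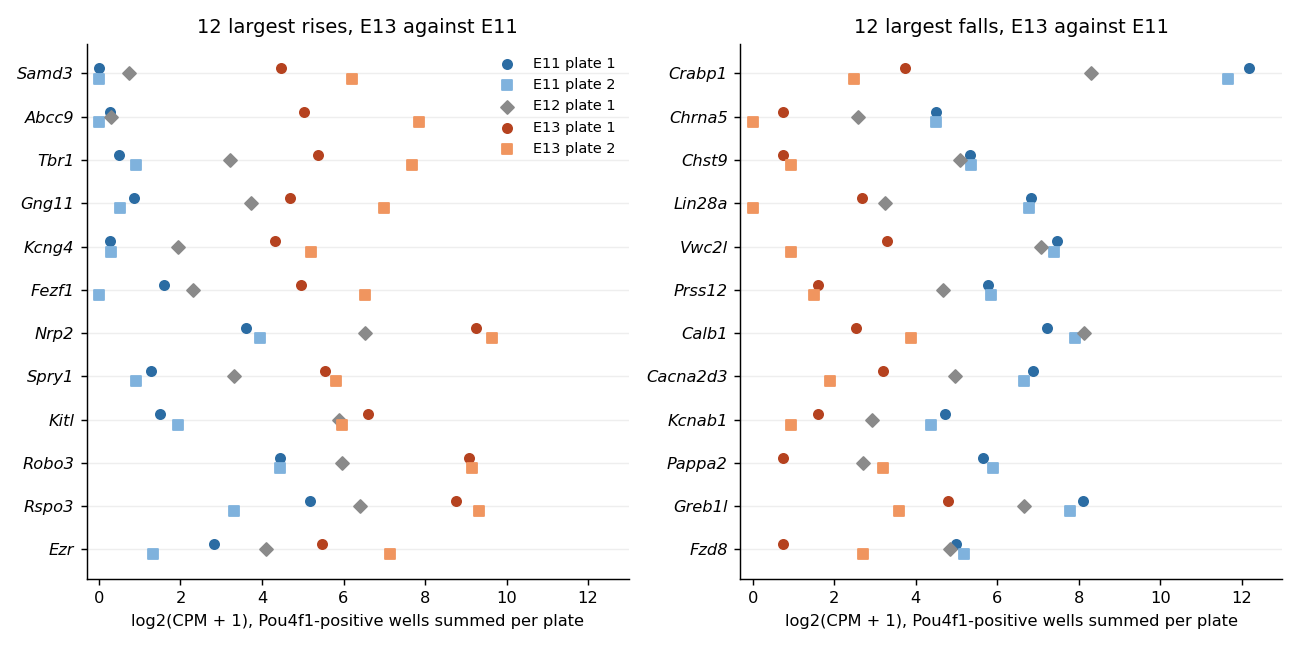
Log2 CPM plus 1 in Pou4f1-positive wells summed per plate for the 12 genes with the largest rise and the 12 with the largest fall, 1 symbol per plate. Robo3 stands at 20.8 and 20.6 CPM on the E11 plates and at 538 and 573 CPM on the E13 plates, with the E12 plate between at 61.2 CPM.

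Of 16 tested habenula transcription factors beside Pou4f1, 2 were called, both higher, and the list's median log2 fold change was 0.58. Etv1, an ETS factor, went from 8.29 and 7.60 to 73.8 and 218 CPM (4.09 ± 0.54, adjusted p 0.0268). Zic4, a zinc-finger factor of the dorsal neural tube, went from 158 and 117 to 595 and 574 CPM (2.01 ± 0.19, adjusted p 0.0116). Zic4 overlaps Zic1 on the other strand, and the counting is not stated to use strand, so the 2 cannot be fully told apart. Zic1 stood at 897 and 818 CPM and at 1305 and 1301 CPM (adjusted p 0.11). Irx1, an Iroquois homeodomain factor, stood at 106 and 133 CPM and at 367 and 208 CPM (adjusted p 0.0956). Nr4a2, a nuclear receptor-like factor of medial habenula neurons, stood at 89.7 and 144 CPM and at 243 and 135 CPM (adjusted p 0.341), and its stages overlapped. Lhx9, a LIM-homeodomain factor, stood at 497 and 620.1 CPM and at 1048 and 727 CPM (adjusted p 0.206). Tcf7l2, a Wnt effector of the diencephalon, stood at 3829 and 4104 CPM and at 2964 and 1877 CPM (adjusted p 0.149). In wells with 5 or more Pou4f1 UMIs, 8 of the 16 were called higher, among them Irx1 (1.65, adjusted p 0.000675), Lhx9 (0.89, adjusted p 0.00737) and Nr4a2 (1.15, adjusted p 0.0194), and 1 lower.

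Some genes of mature habenular neurons were already present at E11 and rose by E13. Of the 14 medial habenula genes 9 were tested, 3 called higher and 1, Chrna5, lower. Tac1, the substance P precursor, went from 188 and 162 to 569.7 and 480.4 CPM (1.51 ± 0.17, adjusted p 0.018). Gng8, a G protein gamma subunit enriched in the medial habenula, went from 70.3 and 88.0 to 371 and 228 CPM (adjusted p 0.0372). Synpr, a synaptic vesicle protein, went from 11.1 and 12.4 to 62.2 and 105 CPM (adjusted p 0.0144). Nwd2 stood at 396 and 426 CPM and at 608 and 703 CPM (adjusted p 0.0936). Calb2, encoding calretinin, had 2 counts at E11 and 382 at E13, a ratio of 714 (95% counting interval 196 to 5918). It stood at 26.6 CPM on E13 plate 1 and 314 CPM on plate 2 and was not called (adjusted p 0.0567). Tac2 and Chat, markers of later medial neurons, were at 0 counts on both E13 plates and had at most 4 counts on an E11 plate.

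Of the 9 tested lateral habenula genes, Gpr151 was called higher and Calb1 lower, and the median was -0.47. Gpr151, an orphan receptor of habenular axons, held 1 count at E11 and 21 at E13, a ratio of 78.5 (12.6 to 3247, adjusted p 0.0349). When E11 plate 1 was left out the adjusted p of Tac1, Gng8 and Gpr151 was 0.0736, 0.109 and 0.463, and without E11 plate 2 it was 0.122, 0.0587 and 0.357. On later plates of the series, not in the test, Tac1 stood at 334 and 304 CPM at E15, at 4.90 and 96.4 CPM at E18, at 53.8 and 25.0 CPM at P4, at 156 and 171 CPM at P7 and at 218 and 95.1 CPM in the adult. All of these lay below both E13 plates.

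Of 15 tested synapse and transmitter genes 2 were called higher and 1 lower, with a median of -0.48. Nrxn3, a presynaptic neurexin, went from 346 and 282 to 992 and 742 CPM (1.39 ± 0.21, adjusted p 0.0385). Its change was 0.24 in the spliced table (adjusted p 0.514) and 1.78 in the unspliced table (adjusted p 0.00176). Gria2, an AMPA receptor subunit, went from 93.6 and 79.7 to 187 and 191 CPM (adjusted p 0.0337). Cplx1, a complexin of vesicle release, went from 24.3 and 28.02 to 6.15 and 8.25 CPM (adjusted p 0.0461). Slc17a6, the vesicular glutamate transporter gene of habenular neurons, stood at 190.0 and 195 CPM and at 293 and 289.7 CPM (adjusted p 0.102). In wells with 5 or more Pou4f1 UMIs 4 of the 15 were called higher, among them Slc17a6 (0.75, adjusted p 0.0168), and 2 lower. Leaving out E11 plate 1, the adjusted p of Nrxn3, Gria2 and Cplx1 was 0.0998, 0.173 and 0.205, and without E11 plate 2 it was 0.207, 0.324 and 0.314.

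None of the 14 pan-neuronal genes was called with edgeR, although 11 had an unadjusted p under 0.05, DESeq2 called 8 lower and the list's median was -0.90. Neurofilament genes had the widest differences. Nefm stood at 751 and 753 CPM at E11 and at 165 and 33.0 CPM at E13 (adjusted p 0.0746), Nefl at 1016 and 828 CPM and at 251 and 36.7 CPM (adjusted p 0.115), and Ina at 3780.0 and 3815 CPM and at 1757 and 1005 CPM (adjusted p 0.0585). In wells with 5 or more Pou4f1 UMIs 6 of the 14 were called lower, among them Nefm (-2.52, adjusted p 0.00333) and Ina (-1.24, adjusted p 0.00139). Tubb3, the neuronal tubulin, was 2504 and 2649.9 CPM and 1814 and 1562 CPM (adjusted p 0.0901), and Stmn2, a growth cone protein, 3498 and 3340.2 CPM and 2583 and 1484 CPM (adjusted p 0.168). Sncg, a synuclein on the sensory ganglion list, stood at 470.1 and 464 CPM and at 45.1 and 2.75 CPM (adjusted p 0.0508).

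**Figure D4:**
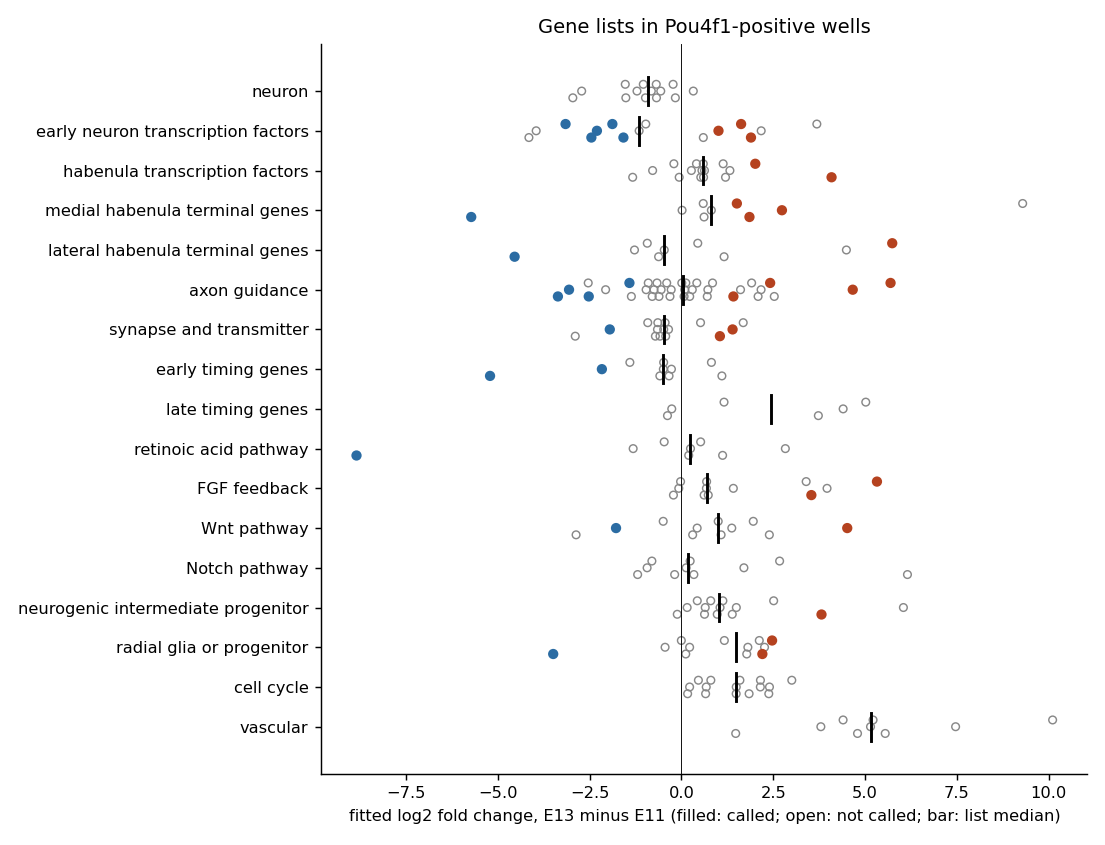
Fitted log2 fold change of each tested member of 17 gene lists, filled where called (red higher, blue lower) and open where not, with a bar at the list's median. The median is -1.15 for the early neuron transcription factors and 5.15 for the vascular list. In all positive wells edgeR, whose calls are drawn, called no member of the vascular list, and DESeq2 called 5 higher.

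Of 12 radial glia or progenitor genes Sox2 and Fabp7 were called higher and Hes5 lower, with a median of 1.47. The list summed to 851 and 796 CPM at E11 and to 957 and 1483 CPM at E13. In wells with 5 or more Pou4f1 UMIs it summed to 644 and 698 CPM at E11 and to 623 and 641 CPM at E13. Sox2, the neural progenitor factor, went from 17.2 and 12.8 to 67.6 and 110.0 CPM (adjusted p 0.0193), and it lies within Sox2ot on the same strand, so its reads are uncertain. In wells with 5 or more Pou4f1 UMIs the change of Sox2 was 3.65 (adjusted p 0.00474). Fabp7, the radial glial fatty acid-binding protein, went from 23.6 and 14.3 to 90.8 and 94.4 CPM (adjusted p 0.0196), but in wells with 5 or more Pou4f1 UMIs its change was 0.75 (adjusted p 0.297). Hes5, a Notch effector, went from 45.9 and 22.4 to 2.05 and 4.58 CPM (-3.49, adjusted p 0.0491), and in those wells its change was -4.04 (adjusted p 0.0832). Neurog2, the proneural factor, went from 6.47 and 6.30 to 43.0 and 150.4 CPM (3.80 ± 0.60, adjusted p 0.0428) and was the 1 called of 14 neurogenic genes. Of these 14, 9 had an unadjusted p under 0.05, DESeq2 called 4 higher, and edgeR called 4 of 13 higher in wells with 5 or more Pou4f1 UMIs. Neurog2 in those wells stood at 3.36 and 2.15 CPM and at 23.0 and 96.1 CPM. In the Pou4f1-negative wells of the E13 plates Sox2 stood at 199 and 346 CPM and Fabp7 at 304 and 269 CPM. Hes5 stood there at 16.9 and 59.3 CPM and Neurog2 at 91.2 and 218 CPM. Each was above the positive wells of the same plate. With E11 plate 1 left out, the adjusted p was 0.176 for Hes5 and 0.0515 for Neurog2.

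The cell cycle list gave no call in 15 genes with edgeR, with 9 at an unadjusted p under 0.05 and 4 called higher by DESeq2, and edgeR called none of 11 tested in wells with 5 or more Pou4f1 UMIs. Cdk1 stood at 13.1 and 4.78 CPM and at 28.005 and 130.2 CPM (adjusted p 0.101) and Mki67 at 15.2 and 8.91 CPM and at 17.8 and 61.4 CPM (adjusted p 0.184). The list summed to 297 and 166 CPM at E11 and to 365 and 989 CPM at E13, and to 142, 88.6, 126 and 288 CPM in wells with 5 or more Pou4f1 UMIs. Of 9 tested vascular genes none was called with edgeR, 8 had an unadjusted p under 0.05 and DESeq2 called 5 higher. In wells with 5 or more Pou4f1 UMIs edgeR called 2 of 5 tested higher, Rgs5 (7.86, adjusted p 0.00394) and Igfbp7 (5.18, adjusted p 0.0065). Rgs5, a mural cell gene, stood at 0.202 and 0.217 CPM and at 24.6 and 572 CPM (adjusted p 0.0697), and Igfbp7 at 1.41 and 0.652 CPM and at 36.2 and 379.6 CPM (adjusted p 0.0558).

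Of 12 tested FGF feedback genes Fgf15 and Spry1 were called higher. Fgf15, a secreted FGF of the dorsal midline and diencephalon, went from 2.83 and 3.91 to 51.9 and 30.3 CPM (3.54 ± 0.41, adjusted p 0.0194). Of 11 tested Wnt genes Rspo3 was called higher and Lef1, a nuclear effector of Wnt signalling, lower, from 674 and 647 to 242 and 160.5 CPM (-1.78 ± 0.23, adjusted p 0.0264). Axin2, a feedback target of the pathway, stood at 29.3 and 24.1 CPM and at 66.9 and 51.3 CPM (adjusted p 0.0697). The Notch list of 10 tested genes gave no call with edgeR, with 4 at an unadjusted p under 0.05 and 2 called higher and 1 lower by DESeq2. The dissociation response list of 10 tested genes gave none, with 2 at an unadjusted p under 0.05 and 1 called lower by DESeq2.

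The counts of the other lists in wells with 5 or more Pou4f1 UMIs were as follows, against 3.68% of all genes called higher and 3.71% lower there. Of 36 axon guidance genes 7 were called higher and 8 lower. Of 8 tested medial habenula genes 5 were called higher and 1 lower, and of 9 lateral habenula genes 2 higher and 1 lower. Of 10 early timing genes 3 were called lower and of 7 retinoic acid genes 1. Of 9 FGF feedback genes 2 were called higher, and of 6 Wnt genes 2 higher and 1 lower. Of 11 progenitor genes 1 was called higher, and 1 of 8 Notch and 1 of 10 dissociation response genes was called lower.

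Whether a change differed between Pou4f1-positive and Pou4f1-negative wells of the same plates was tested as an interaction, with plate as a block. Of 11749 genes 5 were called (0.0426%) with edgeR, and 939 had an unadjusted p under 0.05. Erbb4, a neuregulin receptor tyrosine kinase (ENSMUSG00000062209, chromosome 1, 68032186 to 69108059, minus strand), stood at 295 and 259 CPM in positive wells at E11 and at 1669 and 1098 CPM at E13 (2.25 ± 0.25, adjusted p 0.0164). In negative wells it stood at 678 and 636 CPM and at 736 and 316 CPM, so the stages overlapped there. The difference of the changes was 2.69 ± 0.29 on the log2 scale (adjusted p 0.0155). It was 2.57 without E11 plate 2 (adjusted p 0.198), when no gene was called and 907 had an unadjusted p under 0.05. Erbb4 differed with the Pou4f1 count of the well at both stages. At E11 it stood at 856 and 623 CPM in wells with 1 UMI and at 241 and 191 CPM in wells with 5 or more. At E13 the order was the reverse, with 942 and 382 CPM in wells with 1 UMI and 1848 and 1796 CPM in wells with 5 or more. The other 4 were microglial or lysosomal genes that were high in negative wells at E11.

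**Figure D5:**
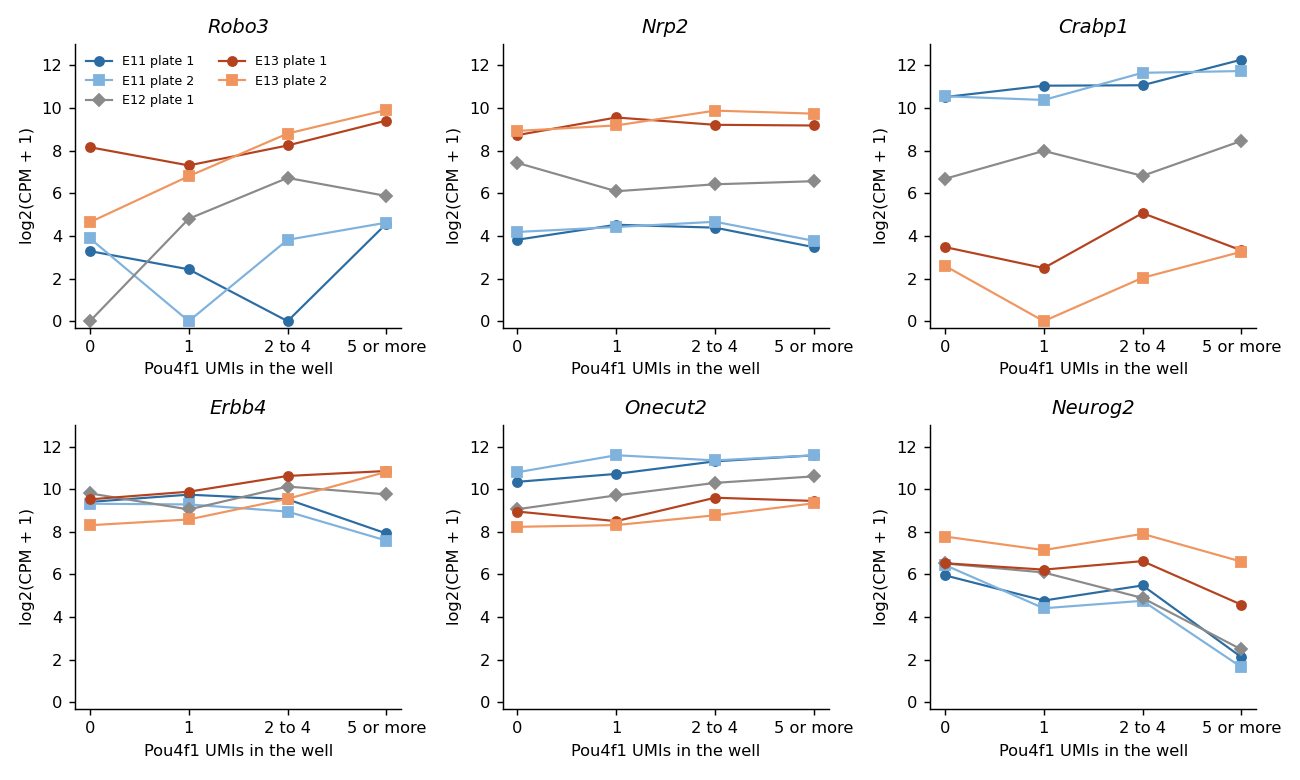
Log2 CPM plus 1 of 6 genes in wells with 0, 1, 2 to 4 and 5 or more Pou4f1 UMIs, 1 line per plate. Erbb4 at 5 or more UMIs stands at 241 and 191 CPM on the E11 plates and at 1848 and 1796 CPM on the E13 plates.

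Levels of 6 genes were also read in wells with no, 1, 2 to 4 and 5 or more Pou4f1 UMIs, and the positive wells were not alike. Nrp2 at E13 ran from 423 to 750 CPM on plate 1 and from 484 to 937 CPM on plate 2 over the 4 bins of Pou4f1 UMIs, and at E11 from 10.1 to 22.0 and from 12.6 to 24.3 CPM. Its stages did not overlap in any bin. Robo3 on the E13 plates was 157 and 110.4 CPM in wells with 1 UMI and 679 and 958 CPM in wells with 5 or more. Crabp1 was at most 32.5 CPM in any bin at E13 and at least 1327 CPM in any bin at E11. Onecut2 ran from 300.1 to 774.8 CPM at E13 and from 1300 to 3085 CPM at E11.

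The E12 plate lay between the 2 stage means for 108 of the 155 genes called higher and 117 of the 167 called lower, 69.9% of the called genes, against 33.5% of all genes tested. Since the E11 and E13 means are far apart for called genes by their choice, the larger share is a description. On the log2(CPM + 1) scale, with 0 at the E11 mean and 1 at the E13 mean, the median E12 position was 0.276 for the genes called higher and 0.232 for those called lower. Trim71 stood at 1.00, Pappa2 at 0.926, Kitl at 0.905 and Lin28a at 0.723. Vwc2l stood at 0.0746, Chst9 at 0.0565 and Calb1 at -0.125, past the E11 mean. The positions farthest outside the 2 means among named called genes were those of Pou3f1 at -1.03 and Unc5d at -0.40, on the E11 side, and of Nrp1 at 1.23 and Gria2 at 1.24, past the E13 mean. E12 has 1 plate, so these positions have no replicate check.

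Over the later plates the levels of several named genes went on in Pou4f1-positive wells of the same line, as values outside the test. Nrp2 stood at 1173 and 1350.5 CPM at E15 and at 336 and 585 CPM in the adult. Robo3 stood at 919 and 1106 CPM at E15, at 189 and 473 CPM at E18, at 575 and 641 CPM at P4, at 446 and 439 CPM at P7 and at 81.0 and 277 CPM in the adult. These stages did not follow 1 direction. Crabp1 stayed between 1.42 and 15.0 CPM on every plate after E13. Calb1 stood at 4.37 and 45.0 CPM at E15 and at 144 and 244 CPM in the adult, against 149 and 239 CPM at E11. Kitl stood at 10.6 and 99.4 CPM at E15, at 39.2 and 69.7 CPM at E18 and at 351 and 406 CPM at P4, so that the E15 plates spanned the E13 values and the P4 plates lay above them.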

How the data were processed

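The authors deposited expected counts per gene and well as 1 table each of total, spliced and unspliced transcripts. No label describes how they were made, and the form of the values is that of UMI counts corrected for collisions. Per the submitters' processing notes, reads were trimmed with Trim Galore and aligned to mm10 with STAR 2.5.3a. The counter and its annotation were not given in the sources used here. Inverting such a correction for 4096 possible 6-base UMIs gave whole numbers for 100% of the deposited values (tolerance 1e-06), against 46.1% as deposited. Well barcodes repeat between plates by design: 381 well numbers occur on all 4 plates.

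Sums per plate were rounded to whole counts and tested with edgeR 4.0.16 in R 4.3.3 (filterByExpr, TMM scaling, quasi-likelihood F test, 2 residual degrees of freedom, prior 3.88, Benjamini-Hochberg over all genes tested). The design had planned raw counts, and expected counts needed only the rounding. CPM are per 1000000 summed counts without spike-ins. The SE of a log2 fold change is its size divided by the square root of F. DESeq2 1.42.0 was an alternative. With 2 plates against 2, an exact permutation test of a single gene could not reach 0.05, so none was run. On simulated data 43% of 2-fold and 100% of 4-fold changes were called, with 8 false among 12700 genes. For the interaction 7% and 60% were called, with 4 false among 10325. Only genes above a minimum E11 level were changed, with 1 fixed dispersion for all genes and plates. The simulated negative wells had the E11 profile of the positive wells. The shares called do not hold for every gene of the real plates. In all positive wells Onecut3, Nefm and Sncg changed by -3.95, -2.96 and -4.26 on the log2 scale, each beyond 4-fold. None was called (edgeR adjusted p 0.0558, 0.0746 and 0.0508). Their E13 plates lay far apart, so the simulated shares are not the power for such genes. Doublets were not called, and wells above 3 times their plate's median counts were left out in an alternative.

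Named genes are the 12 largest rises and 12 largest falls among called genes with non-overlapping plates and at least 20 CPM in the higher stage, leaving out Pou4f1, predicted genes, mitochondrial genes, Xist and Y genes, then the called members and defining uncalled members of the gene lists, then the interaction genes. The members and lists were chosen with earlier results of these data known. Coordinates are from GENCODE M21 (GRCm38, the same assembly as mm10), where 37938 of 37994 gene IDs matched, and promoter and let-7 sequences are from RefSeq (GRCm38.p6). No source says whether counting used strand. Of 90 named genes 52 overlap another annotated gene, among them Zic4, Robo2, Nrp2, Rspo3, Ezr, Lin28a, Trim71, Sema6d and Erbb4, and their counts may include that gene's reads.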

Additional observations from a re-analysis of the deposited data

Results flagged for a closer look

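In all, 5 genes changed differently from E11 to E13 in Pou4f1-positive and Pou4f1-negative wells of the same plates, by the interaction test of edgeR. The difference of the log2 changes, positive minus negative, was 2.69 for Erbb4 (adjusted p 0.0155), whose levels are given above. It was 8.75 for C1qc (adjusted p 0.0123), 6.40 for Ctsc (adjusted p 0.0123), 7.85 for C1qb (adjusted p 0.0155) and 7.55 for Csf1r (adjusted p 0.046). C1qb and C1qc encode complement subunits and Csf1r a growth factor receptor of microglia, and Ctsc encodes a lysosomal protease. In negative wells C1qb held 111 and 13 counts at E11 and 0 and 3 at E13, and in positive wells 43 and 4 counts and 0 and 19. C1qc held 76 and 9 counts and 0 and 2 in negative wells, and 30 and 4 and 3 and 26 in positive wells. Csf1r held 55 and 9 counts and 0 and 3 in negative wells, and 22 and 3 and 1 and 16 in positive wells. Ctsc held 99 and 18 counts and 2 and 17 in negative wells, and 26 and 1 and 10 and 21 in positive wells. In positive wells E13 plate 2 held more counts than E13 plate 1 of all 4 genes. Fitted changes of genes with so few counts depend on the prior count. The microglia list summed to 1566 and 151 CPM in the 24 and 41 negative wells of the E11 plates, and to 10.1 and 24.0 CPM at E13. Its part in the 4 results was not tested.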

How the results depend on the processing

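The count of 322 genes called became 789 with DESeq2, 2358 with no filter on low counts, 534 with at least 2 Pou4f1 UMIs, 546 after thinning, 503 without wells of high counts, 486 in neuronal wells only and 181 in the spliced table. The positive wells of high counts left out numbered only 0 and 2 on the E11 plates and 1 and 1 on the E13 plates. Alternatives added after seeing the data gave 991 in neuron-rich wells (neuron list of at least 10000 CPM) and 908 with at least 5 Pou4f1 UMIs. Leaving out 1 plate at a time gave 137 to 3716. The neuronal wells alternative kept 2 wells and 6699 counts on E13 plate 2. The replicate block gave 185 calls. Same-numbered plates deviated with a correlation of -0.193 over 10849 genes, which cannot settle whether the numbers pair the plates. A block that crossed the numbers, also added after seeing the data, gave 1410 calls. That block follows the deviations seen, which lowers the spread left over, so its count is no check on the 322. The 5 interaction calls became 31 with DESeq2, 209 with no filter, 3 with at least 2000 counts a well and 26 without wells of high counts, and 0 to 105 leaving out 1 plate. Of the 322 calls, the fit on all 15 plates (298 calls) made 168 again, the replicate block 164 and the spliced counts 174 of the 299 they tested. Of 54 named genes called, 53 kept their sign wherever an alternative tested them (36 in the unspliced table, 43 in neuronal wells), and 25 lost their call in none. The call was lost for 18 with all 15 plates, 17 when E11 plate 1 and 17 when E11 plate 2 was left out, 13 with the replicate block and 11 in the spliced table, where Sema6d, 1 of them, changed by 0.0079 in the spliced table. Calls also lost in the spliced table were those of Nrxn3, Kcnab1, Abcc9, Zfhx3, Hes5, Cxcr4, Cplx1, Fezf1, Ezr and Neurog2. Their edgeR adjusted p there ran from 0.0516 for Neurog2 to 0.514 for Nrxn3. Of uncalled genes, in the unspliced table Zic1 changed by -0.18, Lhx9 by -0.76 and Lin28b by 0.36. The causes were not tested. RLE scaling and library totals moved the median of all genes by 0.0049 and 0.084, with 48.8% and 56.8% of calls higher against 48.1%. E13 depth limits low genes, as the floors above show.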

Other observations

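Some called genes stood outside the lists and the naming rule and were chosen after their values were seen. Zic5, a zinc-finger factor of the dorsal neural tube, went from 42.8 and 25.6 to 323 and 403 CPM (adjusted p 0.00897 with edgeR). Cbln2, a secreted synaptic organiser, went from 20.4 and 29.1 to 382 and 292 CPM (3.70 ± 0.26, adjusted p 0.00535). Of 12 tested contactin and contactin-associated genes, also looked at after the values were seen, edgeR called 5 lower and 1, Cntn2, higher. Of all genes tested 1.26% were called lower and 1.17% higher. Cntn4 went from 131 and 141 to 22.5 and 15.6 CPM (adjusted p 0.00703) and Cntn3 from 236 and 195 to 48.5 and 36.7 CPM (adjusted p 0.00993).

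Slc18a2, the vesicular monoamine transporter gene, went from 61.6 and 45.8 to 6.15 and 2.75 CPM (adjusted p 0.0144). Bdnf, a neurotrophin, went from 25.1 and 28.02 to 4.78 and 4.58 CPM (adjusted p 0.0264), and Gfra1, the GDNF co-receptor, from 278 and 288 to 54.6 and 32.1 CPM (adjusted p 0.0116). Grm8, a metabotropic glutamate receptor, went from 362 and 389.9 to 68.3 and 66.0 CPM (adjusted p 0.0051). Of 77 cytosolic ribosomal protein genes, also looked at after the values were seen, 7 were called higher with edgeR, where 1.17% of all genes tested were, and their median log2 fold change was 0.50 against 0.01 for all genes tested.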
